A study of Homo sapiens with 10 samples.

Results

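The phosphoinositide 3-kinase (PI3K) and AKT pathway was examined through 7 genes. PIK3CA, PIK3CB and PIK3R1 encode subunits of class I PI3K, AKT1 and AKT2 encode the kinases that respond to its product, INPP4B encodes a lipid phosphatase and PHLPP1 encodes a protein phosphatase of AKT. The genes were taken by name, and all 7 were present among the 61533 genes of the count tables and among the 16181 genes with enough counts to be tested. The libraries came from T24, a human bladder cancer cell line that is sensitive to cisplatin, and from T24R2, a cisplatin-resistant line raised from T24 by repeated rounds of the drug. RNA-seq was performed on 5 replicates of each line at day 3 of culture. The labels give both lines one serum-supplemented RPMI medium and name no drug, whereas the study's methods keep T24R2 cells in cisplatin, so the line and the drug cannot be told apart. T24R2 is 1 derivative of 1 parental line. The labels do not say whether the replicates were separate cultures, and the study speaks of independent experiments only in general, so the p-values measure the spread between these libraries, which may be technical.

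Class I PI3K is a dimer of a catalytic subunit and a regulatory subunit that holds the catalytic subunit at activated receptors. It phosphorylates a membrane phosphoinositide, and the resulting lipid brings AKT kinases to the membrane, where they are phosphorylated and become active. The signal is reduced by lipid phosphatases such as INPP4B, which remove phosphates from these lipids, and by the PHLPP phosphatases, which dephosphorylate AKT. Active AKT promotes growth through mTORC1 and keeps FOXO transcription factors out of the nucleus. The pathway is often altered in bladder cancer, and mutation of PIK3CA is one of its common routes. The values here are transcript levels, and neither protein, phosphorylation nor lipid was measured.

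Total counts were 9257843 to 10247941 in T24 and 9591379 to 10840954 in T24R2. The 20 pairs of libraries within a line differed by more than counting noise, with a chi-square per degree of freedom of 2.01 to 7.09. T24R2 replicate 3 stood apart, at 4.19 to 7.09 against the other T24R2 libraries, which differed from each other by at most 3.54. Mitochondrial genes took 2.97% of its counts and 2.35 to 2.58% of theirs. Without it, 5 of the 7 genes were called as with it, with log2 fold changes of -2.78 (INPP4B), -1.46 (PHLPP1), -0.92 (PIK3CA), -0.84 (PIK3CB) and 1.40 (PIK3R1). Of the urothelial and epithelial markers, KRT7, KRT8 and KRT18 were abundant in both lines, though lower in T24R2. They averaged 2242, 1541 and 1112 CPM in T24 and 1370, 1009 and 691 CPM in T24R2. KRT20 was at 0, and UPK1B and UPK3A had at most 3 counts in any library. GATA3, a transcription factor of urothelial cells, averaged 22.1 CPM in T24 and 0.214 CPM in T24R2. Other listed urothelial markers were detected in both lines, with FOXA1 at 66.7 and 13.8 CPM, PPARG at 75.9 and 26.2 CPM and UPK2 at 9.90 and 2.74 CPM. UPK1A, UPK3B, TP63 and KRT5 had at most 12 counts in any library. Of the leukocyte and fibroblast markers, PTPRC, CD3E, DCN and LUM had at most 10 counts in any library and CD68 at most 17. CD68 shares 81.6% of its exon bases on its own strand with other annotation, and whether reads there were counted for CD68 was not tested. The fibroblast markers COL1A1 and PDGFRB were at 6.45 and 3.43 CPM in T24 and at 1.03 and 0 CPM in T24R2. The endothelial gene CDH5 averaged 239 CPM in T24 and 0.559 CPM in T24R2, the endothelial marker PECAM1 averaged 5.36 and 1.17 CPM, and VWF had at most 8 counts. The part of these marker differences in the results below was not tested. In bulk RNA, fewer cells with a transcript and less of it per cell cannot be told apart.

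Levels of a gene between libraries are given as CPM, counts scaled to a common library size with TMM factors, and levels between genes as CPM per kilobase of exon (RPKM). A gene was called when it passed 0.05 after Benjamini-Hochberg adjustment in edgeR's quasi-likelihood test and its log2 fold change was over 0.5 in size. Of the 7 genes, 5 were called, against 51.4% of all tested genes. PIK3R1 was higher in T24R2, where 24.9% of tested genes were called higher. INPP4B, PHLPP1, PIK3CA and PIK3CB were lower in T24R2, where 26.5% of tested genes were called lower. AKT1 and AKT2 were not called. Scaling by library size alone gave 5206 genes called higher and 3431 lower in place of 4027 and 4282, and moved the median of all genes from 0.01 to 0.18. The CPM values of the lines did not overlap for 6 of the 7 genes, AKT1 being the exception, and they did not overlap for 61.2% of tested genes. The median log2 fold change of the 7 genes was -0.79 and that of all tested genes was 0.01, while the median absolute change was 0.94 for the 7 genes and 0.54 for all tested genes.

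**Figure D1:**
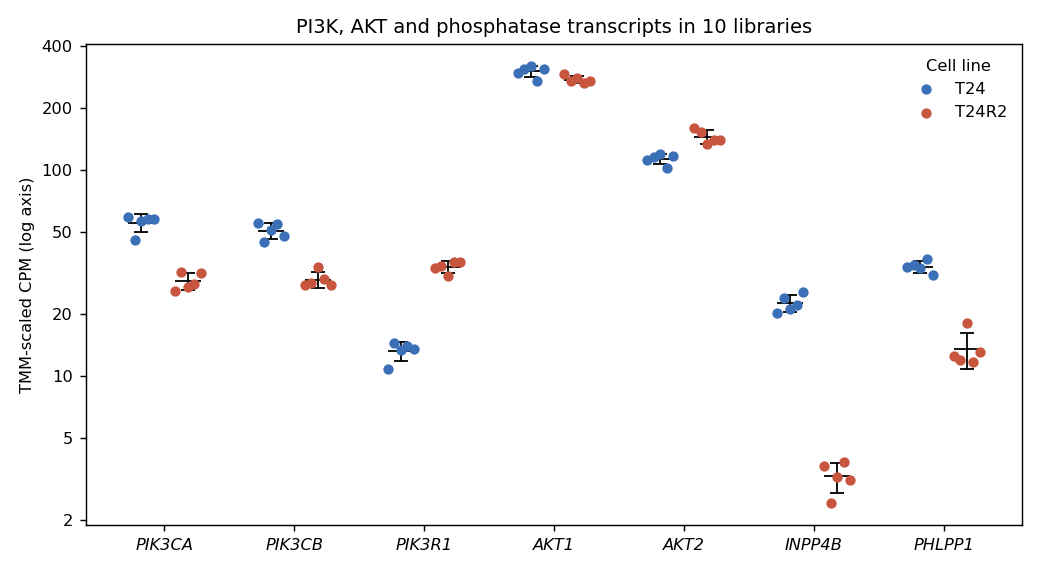
TMM-scaled CPM (log axis) of the 7 genes in each of the 5 T24 (blue) and 5 T24R2 (red) libraries; horizontal marks and bars are the mean and SD of each line. PIK3R1 sits near 13.3 CPM in T24 and 34.1 CPM in T24R2, INPP4B near 22.6 and 3.27 CPM, and the AKT1 points of both lines overlap.

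Both ubiquitous catalytic subunits were lower in T24R2 cells. PIK3CA (ENSG00000121879.6), which encodes the alpha catalytic subunit, lies on the plus strand of chromosome 3 at 179148114 to 179240093 (hg38, GENCODE release 39). Its level was 59.0, 45.9, 56.7, 58.0 and 58.2 CPM in T24 replicates 1 to 5, and 25.9, 31.99, 27.0, 27.9 and 31.6 CPM in T24R2 replicates 1 to 5. Every T24 library was above every T24R2 library, and T24 replicate 2 was the lowest of its line. PIK3CA had a log2 fold change of -0.94 ± 0.08 (SE; edgeR adjusted p = 3.7e-14), and its mean in T24R2 was 52.0% of that in T24. A further fall than that of PIK3CA was seen in 15.2% of tested genes. The gene KCNMB3 runs on the opposite strand and covers 19.8% of the exon bases of PIK3CA, with a mean of 68.9 counts per library beside 414 counts for PIK3CA. With all KCNMB3 counts taken off, the log2 ratio of the mean levels of PIK3CA was -1.05, against -0.94 with them.

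PIK3CB (ENSG00000051382.9), which encodes the beta catalytic subunit, lies on the minus strand of chromosome 3 at 138652698 to 138834928. Its level was 55.5, 44.9, 51.2, 55.1 and 47.7 CPM in T24 and 27.8, 28.3, 34.1, 29.6 and 27.6 CPM in T24R2, in the order of the replicates. The lines were apart, since the highest T24R2 library, replicate 3, stood at 34.1 CPM and the lowest T24 library, replicate 2, at 44.9 CPM. The log2 fold change of PIK3CB was -0.79 ± 0.08 (edgeR adjusted p = 3.8e-12), which left 57.9% of the T24 mean. Its exons share no bases with another gene on either strand.

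PIK3R1 was the 1 gene of the 7 that was called higher in T24R2. It encodes the most widely used regulatory subunit of class IA PI3K, which binds phosphorylated receptors and adaptors and stabilizes the catalytic subunits. PIK3R1 (ENSG00000145675.15) lies on the plus strand of chromosome 5 at 68215756 to 68301821. Its level was 10.9, 14.5, 13.5, 14.1 and 13.5 CPM in T24 and 33.7, 34.4, 30.5, 36.0 and 35.8 CPM in T24R2. The lowest T24R2 library was above the highest T24 library by a wide gap, and each line was narrow, with an SD of 1.41 CPM in T24 and 2.21 CPM in T24R2 (n = 5 each). PIK3R1 had a log2 fold change of 1.36 ± 0.09 (edgeR adjusted p = 1.4e-16), a 2.56-fold higher level. A greater rise was seen in 7.37% of tested genes.

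Of the 4 other class I subunits tested, 2 were called higher and 2 lower, with a median log2 fold change of -0.17. All 4 were thus called, against 51.4% of all tested genes. PIK3CD, the delta catalytic subunit best known from leukocytes, was 150 ± 9.58 CPM in T24 and 79.8 ± 4.29 CPM in T24R2 (SD, n = 5 each), and its log2 fold change was -0.91 ± 0.05 (edgeR adjusted p = 9.6e-19). The gene CLSTN1 on the opposite strand covers 2.99% of the exon bases of PIK3CD, with a mean of 3591 counts against 1131 for PIK3CD. CLSTN1 averaged 4394 counts in T24 and 2787 in T24R2, and its part in the level of PIK3CD was not tested. PIK3CG, the gamma catalytic subunit that answers G protein-coupled receptors, had 0 to 3 counts in the T24 libraries and 228 to 261 counts in the T24R2 libraries, which is at least 70.1-fold higher when 3 counts per library are taken as the floor. PIK3R6, a regulatory subunit of PIK3CG, moved the other way, from 64 to 94 counts in T24 to 0 to 2 counts in T24R2, at least 28.6-fold lower against the same floor. The leukocyte marker PTPRC had at most 1 count in a T24 library and 10 in a T24R2 library beside these values.

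PIK3R3, a further class IA regulatory subunit, was 4.98 ± 1.30 CPM in T24 and 7.45 ± 0.813 CPM in T24R2, and the lines overlapped. Its log2 fold change of 0.58 ± 0.17 was called (edgeR adjusted p = 0.0024), but without T24 replicate 3 it was 0.49 and was not called. PIK3R3 shares 17.5% of its exon bases with a same-strand read-through gene that had 0 counts, and whether reads in the shared bases were counted for PIK3R3 was not tested. PIK3R2 had 0 to 5 counts per library, and 76.4% of its exon bases belong also to a read-through gene on its strand, so no level is given for it. Summed per length, the class I catalytic transcripts were 33.5 ± 1.09 RPKM in T24 and 21.0 ± 0.63 RPKM in T24R2 (SD, n = 5 each), without overlap. Within that sum, PIK3CD was the largest share in both lines, 70.9% in T24 and 60.1% in T24R2, PIK3CB was 19.4% and 17.95%, and PIK3CA was 9.65% and 8.003%. PIK3CG went from 0.0491% to 13.9% of the sum. The sum and its shares include PIK3CD, in which the part of CLSTN1 was not tested, and they rest on the union of exons.

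**Figure D2:**
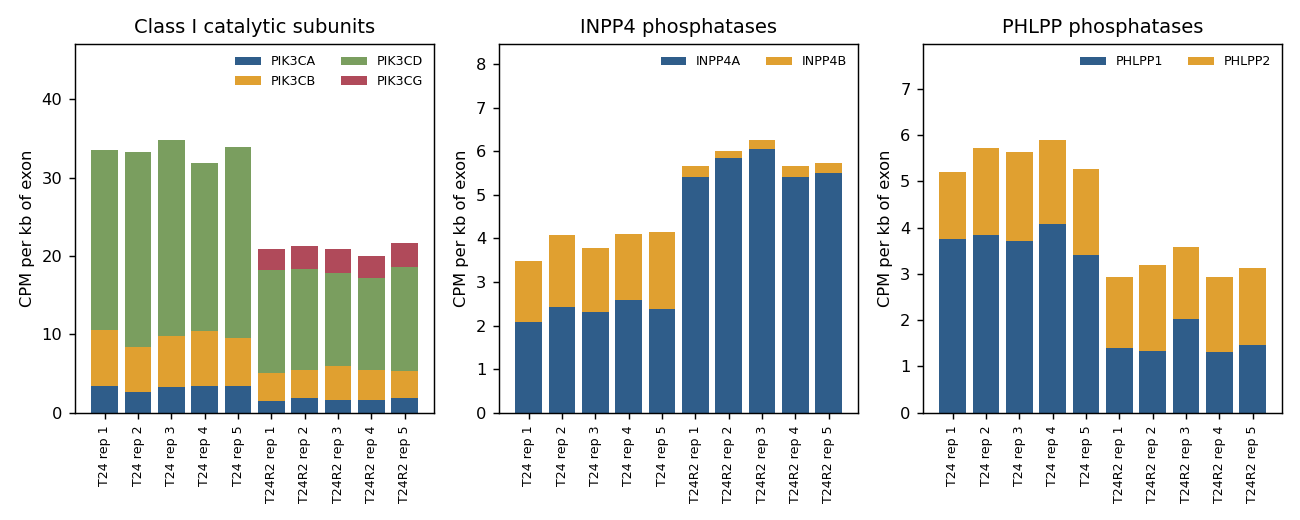
Stacked CPM per kilobase of exon in each library for the class I catalytic subunits, the INPP4 phosphatases and the PHLPP phosphatases. The catalytic sum averages 33.5 in T24 and 21.0 in T24R2 with PIK3CG visible in T24R2 only, INPP4B shrinks from 39.7% to 3.84% of the INPP4 sum, and PHLPP1 from 67.9% to 47.2% of the PHLPP sum. The catalytic sum includes PIK3CD, in which the part of the opposite-strand gene CLSTN1 was not tested.

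Neither AKT1 nor AKT2 was called. AKT1 (ENSG00000142208.18; minus strand of chromosome 14, 104769349 to 104795751) encodes the widely expressed AKT kinase tied to growth and survival. Its level was 296, 310, 319, 270 and 310 CPM in T24 and 293, 270, 278, 264 and 270 CPM in T24R2. The lines overlapped, since T24 replicate 4 was within the range of T24R2. The log2 fold change of AKT1 was -0.13 ± 0.05, and it had an edgeR adjusted p = 0.0103 but missed the fold change minimum. The exact two-sided permutation test of its CPM gave p = 0.0476. Scaling by library size alone turned the log2 fold change of AKT1 to 0.032 (edgeR adjusted p = 0.519), so no direction is drawn for it. A gene on the opposite strand, ENSG00000258430, shares 663 exon bases with AKT1, 6.05% of those of AKT1, and had a mean of 1029 counts, against 2888 for AKT1. With those counts taken off, the log2 ratio of AKT1 was -0.08 (exact permutation p = 0.286).

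AKT2 (ENSG00000105221.18; minus strand of chromosome 19, 40230317 to 40285536) encodes the AKT kinase best known from insulin signalling. Its level was 112, 115, 120, 102 and 117 CPM in T24 and 161, 152, 134, 141 and 140 CPM in T24R2. Every T24R2 library was above every T24 library. The log2 fold change of AKT2 was 0.36 ± 0.05 (edgeR adjusted p = 1.2e-07), under the fold change minimum, and it passed that minimum, at 0.52, when libraries were scaled by size alone.

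INPP4B moved furthest of the 7 genes. INPP4B (ENSG00000109452.13; minus strand of chromosome 4, 142023160 to 142847432) encodes a phosphatase that removes a phosphate from a lipid product of PI3K and is studied as a suppressor of AKT signalling in epithelial tumours. It had 195, 228, 186, 205 and 237 counts in T24 and 40, 28, 34, 43 and 32 counts in T24R2. These counts were 20.2, 23.99, 21.3, 22.05 and 25.6 CPM in T24 and 3.67, 2.43, 3.26, 3.83 and 3.15 CPM in T24R2. The transcript was still detected in every T24R2 library, at a mean of 14.4% of the T24 level. The log2 fold change of INPP4B was -2.79 ± 0.13 (edgeR adjusted p = 3.1e-21), a 6.91-fold lower level, and 3.96% of tested genes fell further.

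The paralogue INPP4A moved in the opposite direction. INPP4A, which acts on the same lipid, was 31.1 ± 2.40 CPM in T24 and 74.4 ± 3.81 CPM in T24R2, a log2 fold change of 1.26 ± 0.07 (edgeR adjusted p = 3.9e-20). Per length, the sum of both transcripts was 3.92 ± 0.285 RPKM in T24 and 5.87 ± 0.268 RPKM in T24R2. INPP4B was 39.7% of that sum in T24 and 3.84% in T24R2, so the lower level of INPP4B stood beside a higher summed INPP4 level.

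PHLPP1 (ENSG00000081913.14; plus strand of chromosome 18, 62715541 to 62980433) encodes a phosphatase that removes an activating phosphate from AKT. Its level was 33.9, 34.8, 33.6, 36.9 and 30.9 CPM in T24 and 12.6, 12.0, 18.2, 11.8 and 13.2 CPM in T24R2. The lines did not overlap, and T24R2 replicate 3 was above the other T24R2 libraries. PHLPP1 had a log2 fold change of -1.33 ± 0.10 (edgeR adjusted p = 3.6e-15), or 39.8% of the T24 mean, and without T24R2 replicate 3 it lay at -1.46. PHLPP2, its paralogue, was 22.2 ± 2.38 CPM in T24 and 20.7 ± 1.59 CPM in T24R2, a log2 fold change of -0.10 ± 0.09 that was not called and turned to 0.06 with library size alone. Per length, PHLPP1 was 67.9% of the summed PHLPP transcripts in T24 and 47.2% in T24R2. For INPP4B, PHLPP1, PIK3CA, PIK3CB, PIK3R1 and AKT2, the exact two-sided permutation test of CPM gave p = 0.00794, the smallest value that 5 against 5 libraries allow.

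The order of the genes by level per length differed between the lines. In T24, AKT1 was the most abundant at 27.5 ± 1.78 RPKM, followed by AKT2 at 7.13 ± 0.43 and PIK3CB at 6.49 ± 0.587, whose ranges overlapped. PHLPP1 at 3.76 ± 0.24 and PIK3CA at 3.23 ± 0.318 RPKM also overlapped, although PHLPP1 was the higher in each of the 5 libraries. Their order rests on the union of exons, 9051 bases for PHLPP1 and 17189 for PIK3CA. Without division by length, PIK3CA averaged 55.5 CPM and PHLPP1 34.0 CPM in T24. INPP4B at 1.55 ± 0.148 and PIK3R1 at 1.24 ± 0.131 RPKM were lowest and did not overlap. In T24R2, AKT1 at 25.1 ± 1.03 and AKT2 at 9.15 ± 0.685 RPKM were again first, and PIK3CB at 3.76 ± 0.342 RPKM followed. PIK3R1, last in T24, came next in T24R2 at 3.18 ± 0.206 RPKM. PIK3CA at 1.68 ± 0.161 and PHLPP1 at 1.496 ± 0.296 RPKM overlapped, and INPP4B was last at 0.224 ± 0.0376 RPKM.

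Ratios within a library do not depend on how libraries are scaled, and 8 of them were compared between the lines with exact two-sided permutation tests. PIK3R1 over PIK3CA, the regulatory over the alpha catalytic subunit per length, was 0.383 in T24 and 1.90 in T24R2 (geometric means), a log2 difference of 2.31. PIK3R1 over PIK3CB went from 0.191 to 0.846, a log2 difference of 2.15. The balance of the catalytic subunits was less clear, with PIK3CB over PIK3CA at 2.01 in T24 and 2.24 in T24R2, a log2 difference of 0.16 whose libraries overlapped (exact permutation p = 0.190, the same after adjustment over the 8 ratios). The size of this ratio rests on the union of exons, 7841 bases for PIK3CB and 17189 for PIK3CA. Without division by length, PIK3CB and PIK3CA averaged 50.9 and 55.5 CPM in T24 and 29.5 and 28.9 CPM in T24R2.

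Among the kinases, AKT2 over AKT1 was 0.260 in T24 and 0.364 in T24R2, a log2 difference of 0.49. The T24 libraries were close to each other in this ratio, with an SD of 0.01 on the log2 scale, and the T24R2 libraries had an SD of 0.09. INPP4B and PHLPP1 each fell relative to the genes they were compared with. INPP4B over PIK3CA went from 0.481 to 0.133, a log2 difference of -1.86, and INPP4B over INPP4A from 0.657 to 0.0393, a log2 difference of -4.06. PHLPP1 over AKT1 went from 0.137 to 0.0589, a log2 difference of -1.22, and PHLPP1 over AKT2 from 0.527 to 0.162, a log2 difference of -1.71. In all of the ratios but PIK3CB over PIK3CA, no library of one line overlapped the other line, with an exact permutation p = 0.00794 and an adjusted p = 0.00907. The CPM of the lines did not overlap for 61.2% of single tested genes. These ratios restate the levels given above and are not separate evidence, and no share was computed for other gene pairs.

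**Figure D3:**
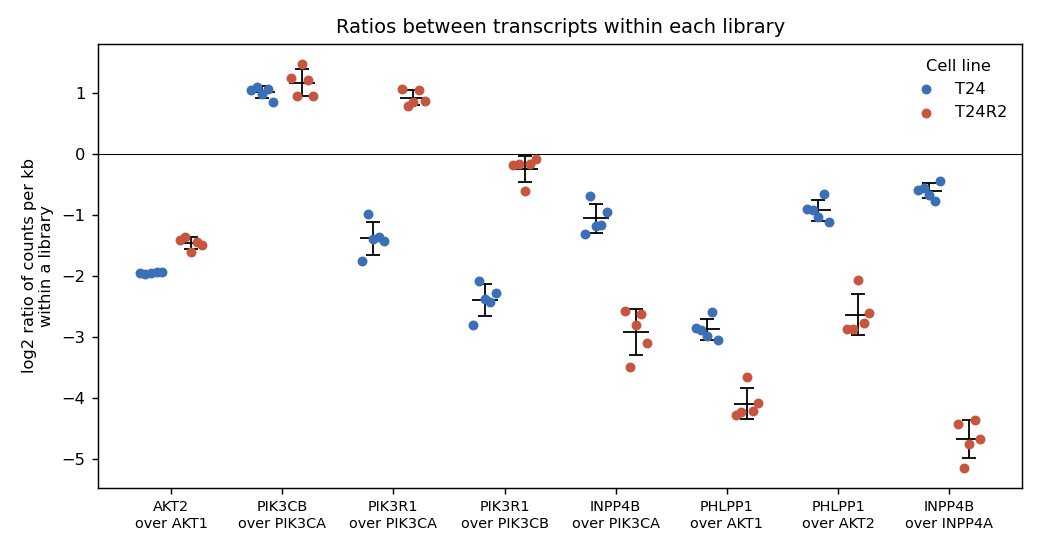
Log2 ratios of counts per kilobase within each library for 8 gene pairs, T24 in blue and T24R2 in red, with the mean and SD of each line. PIK3R1 over PIK3CA rises by 2.31 and INPP4B over INPP4A differs by -4.06 on the log2 scale, while the points of PIK3CB over PIK3CA overlap.

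Outside the 7 genes, 95 further genes of the pathway were listed by function, 94 of which were in the tables and 86 of which were tested. Of these, 16 were called higher and 26 lower in T24R2, or 48.8% in all, against the 51.4% of all tested genes. With library size alone, 25 were called higher and 21 lower. Their median log2 fold change was -0.02 and the median absolute change was 0.49, against 0.54 for all tested genes. Of the 4 tested class II and III PI3K genes, 1 was called higher and 1 lower, with a list median of -0.05 on the log2 scale. PIK3C3, the class III kinase of endosomes and autophagy, rose from 29.5 ± 2.10 to 82.2 ± 6.96 CPM, a log2 fold change of 1.48 ± 0.07 (edgeR adjusted p = 6.1e-22). PIK3C2B, a class II kinase, fell from 13.6 ± 1.25 to 4.27 ± 0.836 CPM, a log2 fold change of -1.67 ± 0.15 (edgeR adjusted p = 3.3e-13).

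Of 22 tested phosphoinositide phosphatases, 3 were called higher, 4 lower and 15 were not called, with a median log2 fold change of 0.08. The share called was 31.8%, against 51.4% of all tested genes. INPP5F, a phosphatase of endosomal phosphoinositides, fell to 38.2% of its T24 level, from 50.1 ± 1.04 to 19.1 ± 3.05 CPM. SYNJ2, a synaptojanin that acts on membrane phosphoinositides, fell from 196 ± 7.79 to 134 ± 4.95 CPM, a log2 fold change of -0.54 ± 0.05 (edgeR adjusted p = 1.1e-13), but it was -0.38 with library size alone and -0.47 with upper-quartile scaling and was then not called. The phosphatases called higher included INPP4A, described above, and INPP5K, which rose from 28.9 ± 4.32 to 53.8 ± 4.46 CPM. INPPL1, the most abundant of the list per length, was 249 ± 7.25 CPM in T24 and 210 ± 7.54 CPM in T24R2, a log2 fold change of -0.25 that missed the fold change minimum. INPPL1 was chosen after its values were seen.

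Of 6 tested genes in the group of the kinase PDK1 and the mTORC2 complex, which activate AKT, 1 was called higher and 1 lower, with a median log2 fold change of -0.07. In this group 33.3% were called, against 51.4% of all tested genes. MTOR, the kinase of both mTOR complexes, rose from 98.0 ± 3.45 to 163 ± 8.89 CPM, a log2 fold change of 0.73 ± 0.05 (edgeR adjusted p = 1.1e-16). PRR5L, an mTORC2 partner, fell from 10.2 ± 1.74 to 0.494 ± 0.252 CPM, a log2 fold change of -4.33 ± 0.26 (edgeR adjusted p = 2.3e-18). RICTOR, the subunit that defines mTORC2, was 75.3 ± 8.74 CPM in T24 and 80.5 ± 4.36 CPM in T24R2 and was not called; it too was chosen after its values were seen.

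Of 11 tested negative regulators of PI3K and AKT, 2 were called higher and 3 lower, with a median log2 fold change of -0.10. Those calls make up 45.5% of the list, against 51.4% of all tested genes. PIK3IP1, a membrane protein that inhibits the catalytic subunits, fell from 21.95 ± 3.14 to 2.12 ± 0.322 CPM, or 9.66% of the T24 mean (log2 fold change -3.36 ± 0.15, edgeR adjusted p = 2.4e-22). PPP2R1B, a scaffold subunit of the phosphatase PP2A, fell from 50.3 ± 3.19 to 19.4 ± 2.22 CPM. THEM4, reported as an AKT-binding protein, rose from 9.92 ± 0.883 to 23.5 ± 1.82 CPM, and DEPTOR, an inhibitor of mTOR complexes, rose from 3.80 ± 1.04 to 9.21 ± 1.76 CPM.

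Of the 5 tested genes listed as adaptors of PI3K, edgeR called 0 higher and 3 lower, with a median log2 fold change of -0.62. That is 60% called, against 51.4% of all tested genes, of which 24.9% were called higher and 26.5% lower. At an unadjusted p under 0.05, as with DESeq2 and limma-voom, 0 adaptors were higher. GRB10, an adaptor that is on this list although it restrains the insulin receptor, fell from 103 ± 6.18 to 14.9 ± 0.358 CPM, a log2 fold change of -2.78 ± 0.07 (edgeR adjusted p = 1.8e-31). IRS2, the insulin receptor substrate that recruits the regulatory subunit, fell from 30.6 ± 2.61 to 9.85 ± 1.12 CPM, whereas IRS1 was 92.9 ± 6.78 and 91.2 ± 2.46 CPM and was not called. The comparison with IRS1 was chosen after its values were seen.

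Downstream of AKT, 3 of 14 tested substrates were called higher and 5 lower, with a median log2 fold change of -0.04. Thus 57.1% of the substrates were called, against 51.4% of all tested genes. FOXO1, a transcription factor held in the cytoplasm by AKT, fell from 44.5 ± 1.82 to 10.8 ± 1.29 CPM, a log2 fold change of -2.04 ± 0.09 (edgeR adjusted p = 7.7e-23). FOXO1 shares 22.7% of its exon bases with a same-strand gene that had 0 counts, and whether reads in the shared bases were counted for FOXO1 was not tested. TBC1D1, a GTPase-activating protein of glucose transporter traffic, fell from 92.3 ± 1.62 to 31.2 ± 3.00 CPM. FOXO4 rose from 12.5 ± 2.03 to 19.9 ± 2.22 CPM, and AKT1S1, the mTORC1 inhibitor PRAS40, rose from 49.7 ± 4.23 to 90.6 ± 5.83 CPM. Of 7 tested genes of mTORC1 and its targets, edgeR called 1 higher and 0 lower, or 14.3% against 51.4% of all tested genes, with a median log2 fold change of 0.18. At an unadjusted p under 0.05, 2 of them were lower, and DESeq2 and limma-voom called 0 lower. All 7 also passed 0.05 after adjustment in edgeR, so the 6 not called missed only the fold change minimum. Among these 6 were the 2 lower genes, EIF4EBP1 (log2 fold change -0.24) and EIF4EBP2 (-0.37). The gene called higher was ULK1, the kinase that starts autophagy, at 49.3 ± 2.91 CPM in T24 and 99.9 ± 3.48 CPM in T24R2.

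Of 13 tested genes known as FOXO targets, 3 were called higher and 7 lower, 76.9% in all, where 51.4% of tested genes were called (24.9% higher and 26.5% lower). They had a median log2 fold change of -1.10 beside 0.01 for all tested genes. GADD45A, a stress-response gene, fell from 169 ± 4.51 to 70.2 ± 4.002 CPM, and CAT, which encodes catalase, fell from 115 ± 3.82 to 53.6 ± 2.44 CPM. INSR, the insulin receptor, rose from 2.92 ± 0.633 to 24.2 ± 1.87 CPM, a log2 fold change of 3.04 ± 0.14 (edgeR adjusted p = 3.0e-22). SESN1, a stress-inducible regulator of mTORC1, rose from 3.87 ± 0.484 to 8.75 ± 1.06 CPM. The lists hold few genes, and no list was tested as a set.

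**Figure D4:**
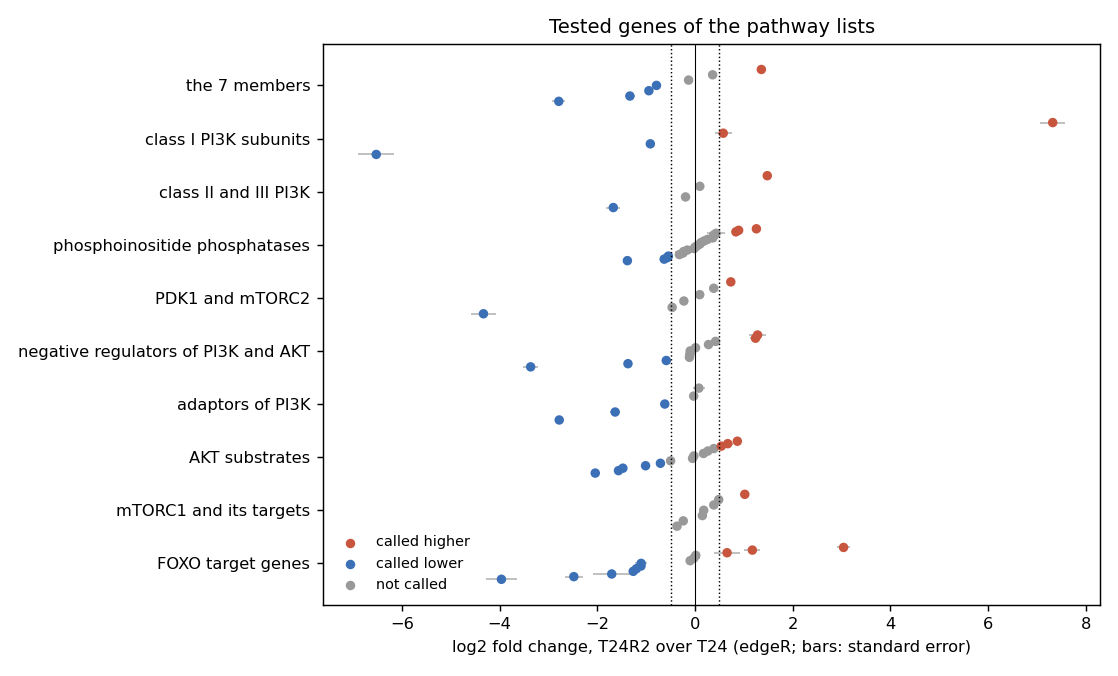
Log2 fold change (T24R2 over T24, edgeR) with its standard error for the 7 genes and the tested genes of each pathway list; red points were called higher, blue points lower and grey points not called, and dotted lines mark the fold change minimum of 0.5. Higher and lower calls occur in most lists, with 16 higher and 26 lower among the 86 tested genes, or 48.8% beside 51.4% of all tested genes. The adaptors have none higher and the mTORC1 list none lower.

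The genes around each of the 7 were compared, counting tested genes within 1 Mb on either side, and the nearest one on each side that does not overlap the gene is named. Of all tested genes, 24.9% were called higher and 26.5% lower. Around INPP4B, 3 of 6 tested genes were called higher and 0 lower by edgeR (0 lower also at an unadjusted p under 0.05, with DESeq2 and with limma-voom), with log2 fold changes of -0.12 to 0.91 beside -2.79 for INPP4B. The nearest on each side were IL15 (-0.04 ± 0.18) and USP38 (0.91 ± 0.10). Around PHLPP1, 8 of 15 were called higher and 2 lower, with a median of 0.59, and the nearest on each side were ZCCHC2 (0.46 ± 0.11) and the apoptosis inhibitor BCL2 (1.21 ± 0.14). INPP4B was thus below all of its tested neighbours, and PHLPP1 was below 13 of 15.

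Of 14 tested genes around PIK3CA, 1 was called higher and 10 lower, with a median log2 fold change of -0.85 beside -0.94 for PIK3CA, and 5 of the 14 were lower than PIK3CA. Besides KCNMB3, which overlaps PIK3CA and had -0.45, the nearest on each side were ZMAT3 (-1.06 ± 0.12) and the pseudogene LRRFIP1P1 (0.87 ± 0.33, at under 2 CPM in both lines). Around PIK3CB, on the same chromosome, 1 of 11 was called higher and 5 lower, with a median of -0.40, and the nearest on each side were FAIM (0.38 ± 0.21) and FOXL2 (-0.72 ± 0.16). Whether DNA copy number differs between the lines in these regions was not tested.

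Around PIK3R1, 1 of 8 tested genes was called higher and 2 lower, and PIK3R1 was above all 8. These 8 all lie on the side of higher coordinates, 792 to 978 kb away, and none was tested within 1 Mb on the other side. The nearest on each side, MAST4 (-1.08 ± 0.08) and SLC30A5 (-0.19 ± 0.07), lie 1046 and 792 kb away. Around AKT1, 6 of 27 were called higher and 6 lower, and the nearest on each side, SIVA1 and ZBTB42, 0.855 and 4.85 kb away, had log2 fold changes of 0.47 ± 0.06 and -0.43 ± 0.16. Around AKT2, 13 of 43 were called higher and 9 lower, and the nearest on each side were MAP3K10 (0.17 ± 0.10) and C19orf47 (0.81 ± 0.11). The gene ENSG00000205041, named after its values were seen, had a log2 fold change of 1.39 (edgeR adjusted p = 8.7e-05). It overlaps the span of AKT2 but shares no exon bases with it.

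**Figure D5:**
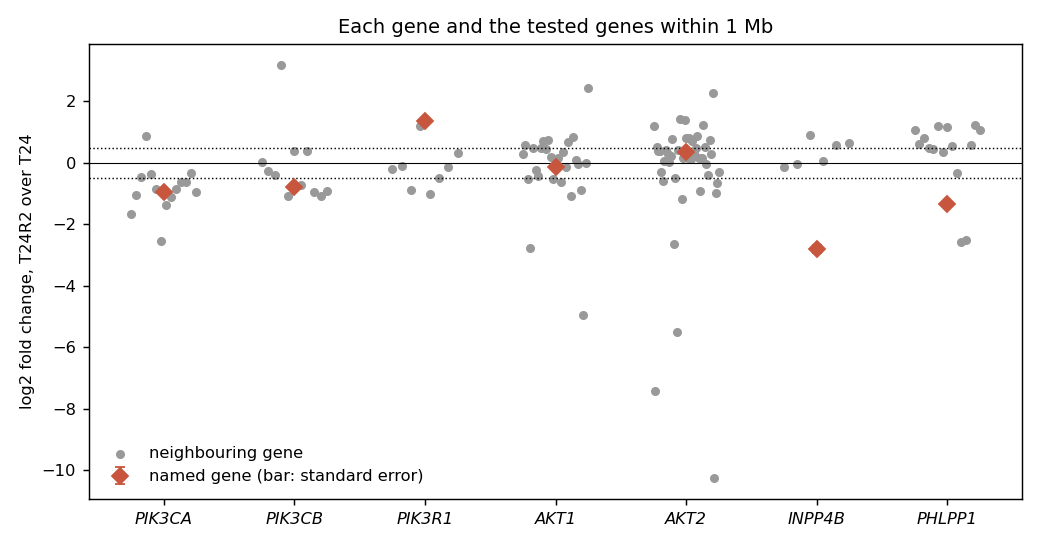
Log2 fold change (T24R2 over T24) of each of the 7 genes (red diamond, bar: standard error) and of the tested genes within 1 Mb (grey points, spread sideways for visibility); dotted lines mark 0.5 in either direction. The neighbours of PIK3CA lie mostly below 0 (median -0.85), whereas INPP4B stands below its 6 tested neighbours and PIK3R1 above its 8. The 8 tested near PIK3R1 all lie on its side of higher coordinates.

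Genes with the most similar pattern were sought by Pearson correlation of log2 CPM over the 10 libraries, among tested genes that averaged 10 CPM or more. The libraries fall into 2 lines and share depth and scaling, so a high coefficient mainly restates the difference between the lines and is given as a description. The closest to INPP4B were the actin crosslinker gene FLNC and PHLDB1 (r = 0.997 for each), and to PHLPP1 SLC43A1 (0.996) and TUBA4A (0.994). PIK3CA was closest to ENSG00000286555 (0.995) and NUTM2A-AS1 (0.989), and PIK3CB to CNBP (0.990) and MAGED1 (0.989). PIK3R1 was closest to PAG1 (0.996) and LYRM7 (0.995). AKT1, which differed least between the lines, had lower best values, with PTBP1 at 0.897 and GUCD1 at 0.894. AKT2 was closest to SIVA1 (0.983), the neighbour of AKT1, and AAMP (0.982).

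The sequences upstream of the genes were searched for short words, since 4 of the 7 moved in one direction. RefSeq (GRCh38.p14) lists 18 starts for the 7 genes, and the 250 bases before each were read on both strands. The words were TGTTTAC, bound by FOXO factors, TGANTCA, bound by AP-1, and TGACNNNGC, the core of the antioxidant response element. Among 35116 RefSeq promoters, 2.98% held the FOXO word, 6.57% the AP-1 word and 10.9% the antioxidant word. The FOXO word occurred before 1 of the 18 starts, that of PIK3CA, and the antioxidant word before 1, a start within the INPP4B gene, while the AP-1 word occurred before 0. The matches are printed because they are the only ones, with the word in capitals and 10 bases on each side. The PIK3CA window is chr3:179148198-179148224 on the plus strand, 149 bases before the RefSeq start and inside an exon of PIK3CA in GENCODE release 39. The INPP4B window is chr4:142405580-142405608 on the minus strand, 152 bases before the start and in an intron of the longer INPP4B transcripts, and it carries the word on the other strand.
PIK3CA: gttcgttgttTGTTTACacgatgtgag
INPP4B: agccatgtgtGCATAGTCAcgcattagag
The guanine and cytosine content of the 250 bases ranged from 29.2% at a start of INPP4B to 83.2% at a start of AKT1. A match describes letters only, and binding at these windows was not measured here.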

How the data were processed

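RNA-seq libraries of T24 and T24R2, 5 replicates each, were analysed. The authors aligned reads to hg38 with STAR 2.7.0, removed duplicates and multimapping reads with samtools 1.10, and used featureCounts 2.0.1 with strand option 1 to assign fragments to GENCODE release 39. The deposited values are raw counts, without normalization or pooling. The kit named in the labels is not described as strand-specific, so counts of genes that overlap on opposite strands may be mixed, and duplicate removal can lower abundant transcripts.

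Here edgeR 4.0.16 in R 4.3.3 was run on all genes (filterByExpr, TMM, glmQLFit and glmQLFTest, Benjamini-Hochberg adjustment) with the thresholds of the study. RPKM used the union of exons. Exact permutation tests were made with SciPy 1.17.1 and overlaps with bedtools 2.31.1. Where no library of a line exceeded 3 counts, a fold was given as a bound only, which covers counting error only. Symbols came from the gene name table for 61369 of 61533 genes, and 1 listed gene, SOD2, was not analysed here. The results of some genes that the lists and the naming rule cover are not reported here.

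The 7 genes, the lists and the tests were chosen with earlier results of these data known. Named besides the 7 genes are their closest family members, up to 2 genes per list and direction with the smallest adjusted p, the nearest non-overlapping tested gene on each side and the 2 most similar genes. Alternatives were other scalings, DESeq2 1.42.0, limma-voom (limma 3.58.1), other count filters and thresholds, removal of mitochondrial genes, a replicate block and leaving out each library. Taking off the counts of opposite-strand genes was added after the data were seen.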

Additional observations from a re-analysis of the deposited data

Results flagged for a closer look

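In 4 of 30 groups of 5 values checked (each gene's CPM and each log2 ratio in each line), 1 library lay apart from the other 4 by Dixon's criterion, where chance gives about 1.5. PHLPP1 was 18.2 CPM in T24R2 replicate 3 and 11.8 to 13.2 CPM in the other T24R2 libraries. PIK3CA was 45.9 CPM in T24 replicate 2 and 56.7 to 59.0 CPM in the others. PIK3R1 was 10.9 CPM in T24 replicate 1 and 13.5 to 14.5 CPM in the others. The log2 ratio of PIK3R1 over PIK3CB was -0.61 in T24R2 replicate 3 and -0.18 to -0.08 in the others. Of these 4 values, 2 belong to T24R2 replicate 3, which also differed most from the other libraries of its line. Each of these libraries stayed on its own line's side of the gap between the lines.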

How the results depend on the processing

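INPP4B, PHLPP1, PIK3CA, PIK3CB and PIK3R1 kept their direction and call in every refit at the thresholds used, with log2 fold changes of -2.85 to -2.63, -1.46 to -1.17, -1.01 to -0.78, -0.84 to -0.63 and 1.29 to 1.52. With opposite-strand counts taken off, PIK3CA was at -1.05. With library size only, the median of all genes moved from 0.01 to 0.18 (5206 genes higher and 3431 lower, against 4027 and 4282), AKT1 turned to 0.032 (edgeR adjusted p = 0.519), AKT2 rose to 0.52 and was called, members called higher became 2 and pathway genes called higher became 25. With upper-quartile scaling, AKT1 stayed at -0.06 (edgeR adjusted p = 0.253). With no fold change minimum, 2 members were called higher, and 65 pathway genes were called, 30 of them higher. With a log2 fold change over 1, 3 members were called, 2 of them lower, and 27 pathway genes, 8 of them higher. Leaving out each library in turn gave 5 members called each time and 41 to 44 pathway genes, 14 to 17 of them higher. Calls that this changed were SESN3 (lost without T24 replicate 2 or 3 or T24R2 replicate 2 or 5, edgeR adjusted p = 0.0547 to 0.106), PFKFB2 (lost without T24 replicate 1), PIK3R3 (lost without T24 replicate 3), MLST8 (called lower without T24 replicate 5), CHUK (called lower without T24 replicate 2, 3 or 5 or T24R2 replicate 2 or 5), INPP5J (called higher without T24 replicate 1) and RHEB (called higher without T24R2 replicate 4 or 5). DESeq2 without shrinkage called 10002 of 33622 genes, and limma-voom called 8306.

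The replicate numbers did not pair the libraries, since same-numbered libraries correlated at -0.02 to 0.02 and 0 of 5 correlated best with their own number. The edgeR fit with a replicate block called 8240 genes and changed no member's call. Paired by number as a replicate block, the ratios keep their values of 0.49 (AKT2/AKT1), 2.31 and 2.15 (PIK3R1/PIK3CA and PIK3R1/PIK3CB), -1.86 (INPP4B/PIK3CA), -1.22 and -1.71 (PHLPP1/AKT1 and PHLPP1/AKT2) and -4.06 (INPP4B/INPP4A), but the exact sign-flip test of 5 pairs cannot go below p = 0.0625, so it cannot pass.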
